A study of Mus musculus with 12 samples.

Results

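The Zfp genes are mouse genes for zinc finger proteins, most of them named by the prefix Zfp and a number. They were taken here as the genes whose name in the deposited tables was Zfp followed by digits only, leaving out Zfp36 (tristetraprolin, a protein that binds AU-rich mRNA), and whose mean over the 3 WT total RNA libraries was at least 2 normalised read counts. That rule gave 233 genes of the 13768 in either table, and 231 of them were also listed for the knockout. Zfp521, a zinc finger protein that holds back adipocyte commitment in mice, and Zfp422 were listed only for the wild type. The members were thus chosen by their level in WT total RNA, and that level is a description of them. Zfp932 (mean 2.19), Zfp418 (2.25) and Zfp873 (2.36) lay just inside the minimum, Zfp109 (1.98), Zfp58 (1.94) and Zfp825 (1.90) just outside it, and 47 Zfp genes of the WT table were under it in all. Of the members, 2 rows bear the name Zfp319 under different gene IDs, and both were kept. The name table gives Zfp259 as Zpr1 and Zfp191 as Zfp24.

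A classical zinc finger is a short protein fold held by a zinc ion, and most Zfp proteins carry a row of them that reads a DNA sequence. The largest class, the KRAB zinc finger proteins, joins such a row to a repressor domain that recruits the corepressor KAP1 (gene Trim28), the histone methyltransferase SETDB1 and HP1 proteins, and many of them silence retroelements. They have multiplied in mammals by tandem duplication, so that they lie in clusters of similar copies. A minority of proteins named Zfp act elsewhere, in ribosome maturation, in translation quality control or as ubiquitin ligases.

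All samples came from C2C12, a mouse myoblast cell line whose cells can fuse into myotubes. Ddx27-/- cells (KO), with a knockout of the gene for a nucleolar RNA helicase of ribosomal RNA processing, and wild-type cells (WT) were each taken as polysomal RNA, the mRNAs loaded with ribosomes, and as total cellular RNA. Values exist for 3 KO polysomal, 2 KO total, 3 WT polysomal and 3 WT total libraries. No clone, passage, drug or separate culture is given in the labels, so p-values measure only the spread between these samples, which may be technical. The design asks which mRNAs are richer in polysomes than in the cell's total RNA, and whether that depends on Ddx27.

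The 11 libraries held between 13683674 and 27347878 reads over the listed genes. Ddx27 itself had 31.3 to 52.6 normalised read counts in the KO libraries, against 139 to 215 in the WT libraries, so its RNA was lower but present in the KO libraries; which part of the gene was changed is not given in the labels. Of the myoblast markers, Myf5, Des, Cdh15 and Itga7 were expressed in both genotypes, while Myod1 was at 0 to 1.13 in KO libraries and 69.7 to 177 in WT libraries. In total RNA the means of Des, Cdh15 and Itga7 were 544, 188 and 271 in KO cells, against 1990, 419 and 667 in WT cells. Myf5 went the other way, at 115 against 62.9. The sums of the myoblast markers were 461 to 539 in KO polysomal, 1032 to 1205 in KO total, 886 to 1041 in WT polysomal and 2918 to 4014 in WT total libraries. The 5 genes of differentiated muscle looked at, Myog, Myh3, Acta1, Ckm and Mylpf, all had a row in both genotypes. Their summed level was 6.93 to 10.4 in KO polysomal libraries, against 122 to 140 in KO total libraries. It was 15.6 to 27.5 in WT polysomal libraries, against 269 to 719 in WT total libraries. The sums were thus lower in polysomal than in total RNA in both genotypes and lower in KO than in WT cells. Not every gene followed the sum: Ckm had a mean of 0.18 in KO polysomal and 0.14 in WT polysomal RNA. Myh3 was at 0 in KO polysomal replicate 1 and WT polysomal replicate 2. Of 5 fibroblast markers, Col1a1, Dcn, Pdgfra and, in the WT table alone, Cd248 had values, with sums of 269 to 274 in KO polysomal, 330 to 489 in KO total, 543 to 769 in WT polysomal and 758 to 815 in WT total libraries, most of it Col1a1. Of 4 adipocyte markers Pparg alone had a row (18.4 to 29.7 over all libraries), and of 4 leukocyte markers Cd14 and Cd68 did (sums of 12.3 to 29.6). Thy1, Adipoq, Fabp4, Plin1, Ptprc and Itgam had no row in either table. Ribosomal RNA sequence, counted under 4 gene models, made up 23.1%, 32.7% and 0.385% of the 3 KO polysomal libraries and 5.91%, 14.5% and 0.674% of the 3 WT polysomal libraries, against at most 0.135% in total RNA. WT polysomal replicate 2 stood apart from the other WT polysomal libraries by a strong trend against long genes (Spearman's rho of -0.50 between gene length and the log2 difference from WT total RNA over the members), and values with and without it are given where it matters. The normalised read counts were scaled separately in the 2 genotypes' tables. Values are printed as deposited, and fold changes between genotypes were computed after the libraries had been put on 1 scale, by factors of 0.953 to 0.997 for KO and 0.981 to 1.07 for WT libraries.

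Zfp mRNAs were scarce in these cells. The median member had 16.2 normalised read counts in KO polysomal RNA and 10.7 in KO total RNA, and 14.6 in WT polysomal RNA and 12.5 in WT total RNA, each the median over genes of the group means. Together the members held 0.488%, 0.515% and 0.676% of all values in the KO polysomal libraries, against 0.499% and 0.426% in the KO total libraries. In the WT polysomal libraries they held 0.596%, 0.511% and 0.653%, against 0.544%, 0.553% and 0.510% in the WT total libraries. All values include ribosomal RNA sequence, at 23.1%, 32.7% and 0.385% of the KO polysomal and 5.91%, 14.5% and 0.674% of the WT polysomal libraries. In total RNA it was at most 0.135%, so the members' shares also vary with rRNA content. Per kb of gene length, the 5 members with the highest mean level over all libraries were Zfp706 (48.5 normalised read counts per kb), Zfp622 (46.0), Zfp207 (39.8), Zfp358 (33.5) and Zfp598 (27.9). Several of these are not KRAB repressors: Zfp622 is a maturation factor of the large ribosomal subunit, known best from its yeast ortholog, Zfp598 is the E3 ubiquitin ligase that marks collided ribosomes, and Zfp207 binds the mitotic checkpoint protein BUB3.

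In the knockout, Zfp mRNAs as a family stood higher in polysomal than in total RNA. Of the 231 members, 206 (89.2%) had a log2 fold change above 0, against 52.7% of the 12070 genes tested. The members' median log2 fold change was 0.51, and that of all genes tested was 0.04. In 129 members (55.8%) every KO polysomal library was above both KO total libraries, which held for 22.3% of all genes. The reverse, every KO polysomal library below both KO total libraries, was seen for 4 members (1.73%) and 18.3% of all genes. The members ranged from -0.65 for Zfp622 to 1.81 for Zfp408, and 31 were at 1 or more. At an adjusted p under 0.05 in limma, with Benjamini-Hochberg adjustment over all genes tested, 9 members (3.9%) rose and 0 fell, beside 0.911% of all genes that rose and 1.85% that fell. Without adjustment, 84 members were higher and 2 lower at p under 0.05 in limma, where 12.1% and 10.7% of all genes were. At an adjusted p under 0.05, edgeR called 0 members lower and DESeq2 called 1, given without the share over all genes. Among the 11194 genes that also met the level minimum in WT total RNA, 0.867% rose, 52.2% were above 0 and the median was 0.03.

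Values of the members above those in total RNA were seen in each of the 3 KO polysomal libraries. Set against the mean of the KO total libraries, the members' median was 0.41, 0.59 and 0.56 on the log2 scale in KO polysomal replicates 1, 2 and 3, and 183, 204 and 198 of 231 members were above it. The same medians over all genes tested were 0.03, 0.03 and 0.06. Replicates 1 and 2 were rich in rRNA sequence and replicate 3 was poor in it, and all 3 were set against the same KO total mean. The part of rRNA content in these values was not tested beyond leaving out the rRNA-like gene models. With 1 library left out, the members' median stayed between 0.45 and 0.58, while the number that rose went to 58 without KO polysomal replicate 1, to 2 without replicate 2, to 0 without replicate 3, and to 0 without either KO total library. Those numbers are given without the share over all genes and show only how far the calls moved. The differentiated muscle genes, lower in polysomal than in total RNA, moved in the same comparison as the members, and their part in the members' values was not tested. In bulk samples, more mRNA on polysomes and less of it elsewhere in the cell cannot be told apart, and neither can fewer cells with a transcript and less of it per cell.

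**Figure D1:**
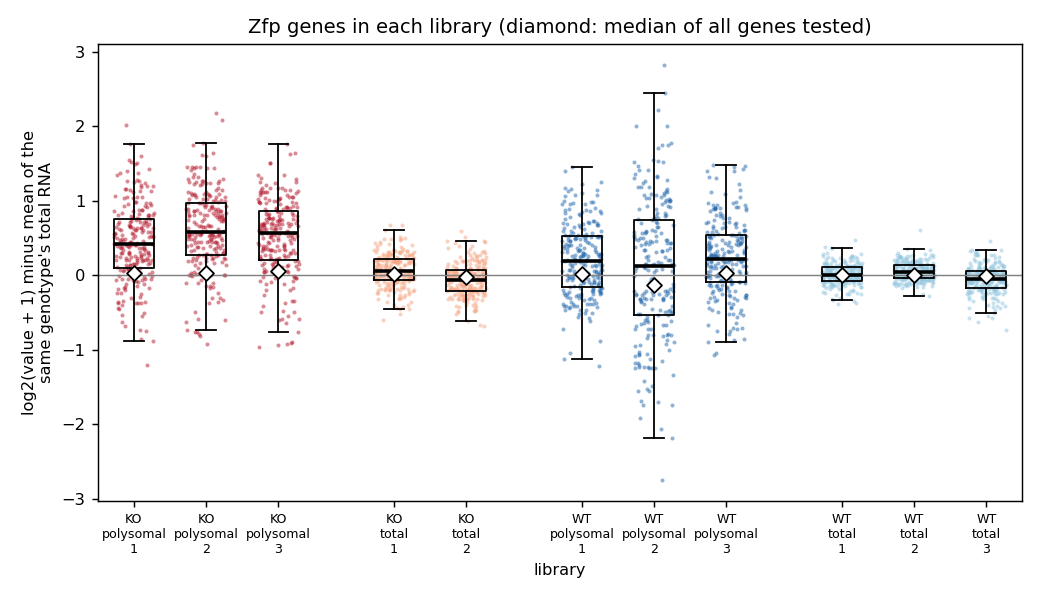
Each point is 1 Zfp gene in 1 library: its log2(normalised read count + 1) minus the mean of the total RNA libraries of the same genotype (y axis), for the 3 KO polysomal, 2 KO total, 3 WT polysomal and 3 WT total libraries (x axis). Boxes give the quartiles with the median as a thick line and whiskers to 1.5 times the box height, and diamonds mark the median of all genes tested: the member medians of the KO polysomal libraries are 0.41, 0.59 and 0.56, and those of the WT polysomal libraries 0.19, 0.13 and 0.22.

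The 9 members that rose were Zfp408, Zfp39, Zfp11, Zfp68, Zfp959, Zfp157, Zfp7, Zfp599 and Zfp239. Zfp408 (chr2:91642756-91650051, GRCm38.p6), whose human ortholog is mutated in inherited retinal disease, had 62.3, 52.8 and 47.9 normalised read counts in the KO polysomal libraries, against 20.1 and 10.7 in the KO total libraries. Its log2 fold change was 1.81 ± 0.30 (SE, limma adjusted p = 0.0244). Zfp39 had 10.4, 15.7 and 11.1 in KO polysomal RNA, against 4.02 and 2.06 in KO total RNA, with a log2 fold change of 1.75 ± 0.32 (adjusted p = 0.0290). In both genes every polysomal library was far above both total libraries, which themselves differed from each other.

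Zfp11 had 7.21, 10.4 and 10.5 normalised read counts in KO polysomal RNA, against 3.50 and 1.54 in KO total RNA (log2 fold change 1.60 ± 0.33, adjusted p = 0.0424). Zfp68 had 52.6, 47.2 and 44.1, against 16.7 and 16.8 (1.46 ± 0.23, adjusted p = 0.0211), the lowest adjusted p among the members. Zfp959 had 7.83, 6.93 and 6.84, against 2.31 and 1.90 (1.40 ± 0.25, adjusted p = 0.0290). The groups did not overlap in any of these genes, and the total libraries of Zfp68 were nearly equal. Zfp157 had 23.6, 29.8 and 30.7, against 11.3 and 9.23 (1.36 ± 0.25, adjusted p = 0.0316). Zfp7 had 29.1, 30.4 and 25.2, against 13.8 and 8.09 (1.33 ± 0.28, adjusted p = 0.0492), and lay closest to the threshold. Zfp599 (1.32 ± 0.27, adjusted p = 0.0411) and Zfp239 (1.16 ± 0.24, adjusted p = 0.0460) completed the set. The spans of Zfp599 and Zfp809 overlap on chromosome 9 in the name table, and whether the authors counted reads by strand is not given in the sources used here, so reads of the pair may be mixed. The other 8 spans overlap no other gene of that table. In the authors' deposited table for the knockout, 31 members had a higher and 0 a lower polysomal value at an FDR under 0.05, beside 3.42% and 4.84% of all its genes, and Zfp408 had a log2 fold change of 1.81 (FDR 5.06e-05).

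**Figure D2:**
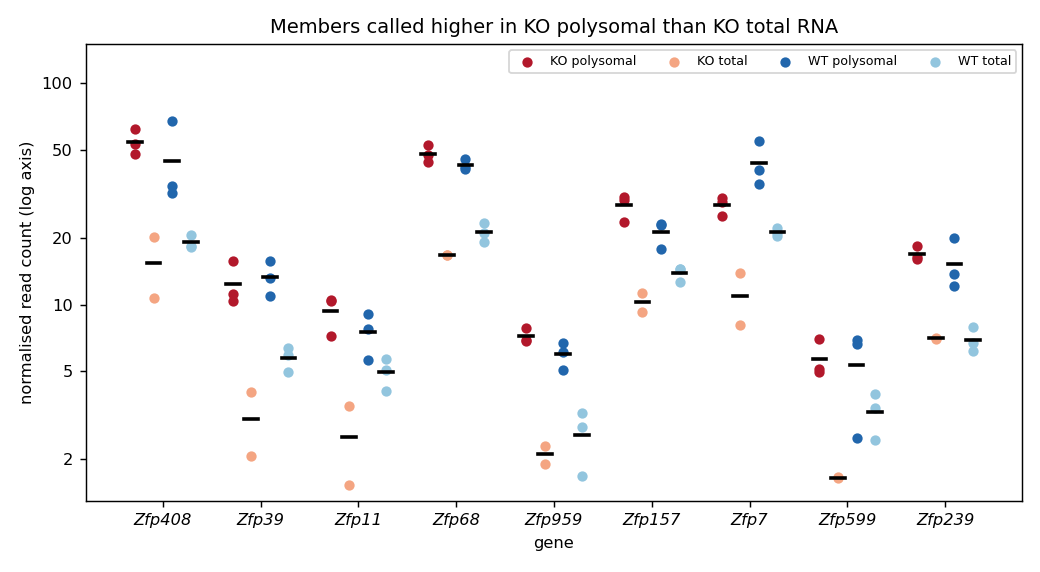
Normalised read counts (y axis, log scale) of the 9 Zfp genes that passed the test in the knockout (x axis), 1 point per library and a bar at each group's mean, in the order KO polysomal, KO total, WT polysomal, WT total. In all 9 genes the 3 KO polysomal libraries lie above both KO total libraries; Zfp599 shows 1 WT polysomal library, at 2.50, among its WT total libraries.

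Promoters are shown for 6 of the 9 members that rose together in the knockout. Each line gives 120 bases that end at the base before a RefSeq transcript start (GRCm38.p6, the same assembly as mm10), 5′ to 3′ on the gene's strand. Capitals mark a match on either strand to the CCAAT box (CCAAT), the GC box (GGGCGGG), the ETS-family core (ACTTCCG) or the TATA box (TATAAA).
Zfp408, chr2:91649792-91649911, minus strand: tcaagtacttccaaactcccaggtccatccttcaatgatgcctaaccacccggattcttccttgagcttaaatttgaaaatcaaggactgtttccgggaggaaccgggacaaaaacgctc
Zfp39, chr11:58904226-58904345, minus strand: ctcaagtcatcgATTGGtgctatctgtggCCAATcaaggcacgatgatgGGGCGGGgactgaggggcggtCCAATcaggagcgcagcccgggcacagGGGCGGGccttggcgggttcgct
Zfp11, chr5:129670089-129670208, minus strand: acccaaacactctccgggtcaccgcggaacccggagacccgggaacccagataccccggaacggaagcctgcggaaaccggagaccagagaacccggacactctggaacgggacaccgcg
Zfp68, chr5:138619744-138619863, minus strand: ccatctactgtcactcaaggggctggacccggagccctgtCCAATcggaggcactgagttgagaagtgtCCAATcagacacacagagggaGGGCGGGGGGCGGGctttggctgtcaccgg
Zfp959, chr17:55891973-55892092, plus strand: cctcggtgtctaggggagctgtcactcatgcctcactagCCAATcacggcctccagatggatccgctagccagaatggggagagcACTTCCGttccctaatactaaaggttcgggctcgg
Zfp157, chr5:138441356-138441475, plus strand: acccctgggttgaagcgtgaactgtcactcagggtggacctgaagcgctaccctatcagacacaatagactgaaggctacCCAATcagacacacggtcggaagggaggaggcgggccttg
The Zfp39 window holds CCAAT and GC boxes, Zfp68 holds both boxes with a pair of adjacent GC boxes, Zfp959 holds a CCAAT box and an ETS-family core, Zfp157 holds a CCAAT box alone, and the Zfp408 and Zfp11 windows hold none of the 4 motifs. Zfp239, not shown, has 2 RefSeq starts, with a CCAAT box before one and a TATA box before the other. The motifs do not overlap each other. Of the members, 187 had a RefSeq promoter entry, and Zfp7 and Zfp599 had none. Within 250 bases before the start, 18.7% of these 187 held the ETS-family core, 49.2% the CCAAT box, 36.4% the GC box and 8.56% the TATA box. Among 9689 table genes with an entry the shares were 11.6%, 40.8%, 48.6% and 7.67%. The members' promoters had a median GC content of 55.6% and 12 CpG sites, against 60.0% and 16 for the table genes. These matches are letters in a window, the motifs were chosen after their shares had been seen, and no test was made of them.

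Of the 3 members with known roles at the ribosome, Zfp622 and Zfp593 had log2 fold changes below 0 and Zfp598 was above 0. Zfp622 had 136, 109 and 108 normalised read counts in KO polysomal RNA, against 190 and 180 in KO total RNA, so all polysomal libraries were below both total libraries; its log2 fold change was -0.65 ± 0.23 (adjusted p = 0.142). Zfp593, whose yeast ortholog joins the large subunit precursor for export, had 46.3, 26.0 and 20.6, against 28.9 and 55.1, and its groups overlapped (-0.44 ± 0.39, adjusted p = 0.543). Zfp598 had 100, 91.1 and 80.4, against 62.2 and 64.1, without overlap (0.51 ± 0.22, adjusted p = 0.215). None of the 3 passed the test in limma, edgeR or DESeq2. At an unadjusted p under 0.05 in limma, 1 was higher and 1 lower, beside 12.1% and 10.7% of all genes.

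The members known for silencing retroelements or imprinted loci were mostly on the side of the family. Of 10 genes listed, 6 were members tested. Of these, 5 had a log2 fold change above 0, beside 52.7% of all genes, and the median was 0.51. None passed in limma or edgeR, and 2 were higher at an unadjusted p under 0.05 in limma, beside 12.1% of all genes. DESeq2 called 1 higher, given without the share over all genes. Zfp961 had 19.9, 21.1 and 16.7 in KO polysomal RNA, against 8.08 and 8.78 in KO total RNA (1.10 ± 0.25, adjusted p = 0.0552). Zfp568, which silences a placental promoter of Igf2, stood at 0.89 ± 0.40, Zfp932, a repressor of endogenous retroviruses, at 0.67 ± 0.27, Zfp809, which silences murine leukaemia virus sequences, at 0.35 ± 0.39, and Zfp445, a guard of imprinted loci, at 0.29 ± 0.55. Zfp57, the other main guard of imprints, was the exception at -0.33 ± 0.29, with 1.70, 2.57 and 1.25 in KO polysomal RNA, against 2.31 and 2.71 in KO total RNA.

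Sequence-specific activators and chromatin-bound members also leaned to polysomes in the knockout. Of 9 tested, 8 were above 0 with a median of 0.69, beside 52.7% of all genes above 0. None passed in limma or edgeR, and 3 were higher at an unadjusted p under 0.05 in limma, beside 12.1% of all genes. DESeq2 called 1 higher, given without the share over all genes. The promoter-binding activator Zfp143 had 16.9, 22.1 and 22.6 in KO polysomal RNA, against 13.6 and 10.9 in KO total RNA (0.69 ± 0.26). Zfp335, part of a histone methylation complex needed for neural progenitors, had 61.7, 49.4 and 52.3, against 29.5 and 29.4 (0.86 ± 0.23, adjusted p = 0.0834). Zfp131 was at 0.81 ± 0.30, Zfp644, a partner of the G9a methyltransferase, at 0.81 ± 0.37, Zfp148 at 0.53 ± 0.35, Zfp410, the activator of the remodeller gene Chd4, at 0.43 ± 0.24, and Zfp207 at -0.13 ± 0.24.

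Among members tied to ubiquitin or signalling, Zfp703 and Zfp503, which are close relatives of the NET family of repressors, lay on opposite sides. Zfp703 had 71.8, 67.9 and 73.3 in KO polysomal RNA, against 48.0 and 45.7 in KO total RNA (0.59 ± 0.21, adjusted p = 0.154). Zfp503 had 50.2, 46.5 and 51.6, against 87.1 and 69.9 (-0.65 ± 0.23, adjusted p = 0.144). Neither pair of groups overlapped, which held for 22.3% of all genes as higher and 18.3% as lower. Of the 4 genes of this list, limma and edgeR called none. DESeq2 called 1, as lower, given without the share over all genes. The ubiquitin ligase gene Zfp91 stood at 0.53 ± 0.28 and Zfp277 at 0.35 ± 0.24. Of the adipocyte-fate members, Zfp217 was at 1.06 ± 0.35 and Zfp516, an activator of brown fat genes, at 0.42 ± 0.27. The RNA-binding members Zfp106, whose loss in mice causes nerve and muscle degeneration, Zfp346, which binds double-stranded RNA, and Zfp326, part of a complex at elongating RNA polymerase II, stood at 0.05 ± 0.42, 0.24 ± 0.22 and -0.48 ± 0.24. None of these 5 passed in limma, edgeR or DESeq2. Zfp217 was higher at an unadjusted p under 0.05 in limma, as were 12.1% of all genes.

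In the wild type, the family's shift toward polysomes was smaller in median than in the knockout, and the members were more spread out (SD over genes 0.45 in KO cells and 0.53 in WT cells). These values share the WT total libraries with the rule that chose the members and are given as a description. Of 233 members, 149 (63.9%) were above 0, beside 48.9% of all genes, and the median log2 fold change was 0.19, beside -0.02. The test called 23 members higher (9.87%) and 6 lower (2.58%), beside 8.89% and 13.8% of the 12380 genes tested. Without WT polysomal replicate 2 it called 65 higher and 19 lower, and without WT total replicate 1, 2 or 3 it called 0 higher each time and 1, 0 and 2 lower. The counts with a library left out are given without their share over all genes and show only how far the calls moved. In the WT polysomal libraries 1, 2 and 3 the members' median was 0.19, 0.13 and 0.22, and the quartiles of the members lay at -0.16 and 0.52, at -0.53 and 0.75, and at -0.09 and 0.54. In the authors' deposited table, 31 members were higher and 6 lower at an FDR under 0.05, beside 13.0% and 14.3% of its genes.

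The 12 called members with the largest WT polysomal values relative to total were Zfp593, Zfp958, Zfp948, Zfp472, Zfp961, Zfp408, Zfp39, Zfp184, Zfp131, Zfp605, Zfp239 and Zfp868, with log2 fold changes from 1.45 to 1.01. Zfp593 had 44.6, 127 and 45.3 normalised read counts in WT polysomal RNA, against 21.6, 24.2 and 22.2 in WT total RNA, so WT polysomal replicate 2 stood far above the others; without it the log2 fold change was 0.96, against 1.45 with it. Zfp948 had 14.6, 19.1 and 21.4, against 7.71, 7.74 and 5.85, and Zfp472 had 14.6, 9.18 and 14.0, against 4.86, 5.12 and 4.22. The 6 lower members were Zfp704 (-1.12 ± 0.17), Zfp503 (-1.02 ± 0.19), Zfp174 (-0.85 ± 0.24), Zfp526 (-0.85 ± 0.21), Zfp369 (-0.84 ± 0.24) and Zfp316 (-0.74 ± 0.21). Zfp704 had 22.2, 25.0 and 24.6, against 49.7, 57.0 and 52.9, with no overlap. Of the 9 members that rose in the knockout, 6 were also called higher in the wild type, which is 6 of 23 there. The same overlap was not counted over all genes, so it is not read as a trait of the members.

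The 2 genotypes share no library in these comparisons, so their fold changes can be set side by side. Over 231 members, 138 were above 0 in both genotypes, 68 above 0 in the knockout only, 11 in the wild type only and 14 in neither. Across these genes, which are not independent replicates, Pearson's r was 0.32 and Spearman's rho was 0.32. Zfp408, Zfp39 and Zfp68 were high in both genotypes, at 1.81 and 1.10, 1.75 and 1.07, and 1.46 and 0.98 in KO and WT cells. Zfp428 was at -0.59 in KO cells and 1.53 in WT cells, where its values were 38.6, 152 and 39.2 in polysomal RNA, against 19.3, 22.8 and 19.8 in total RNA; without WT polysomal replicate 2 its WT value was 0.89. Zfp408 was at 0.76 in WT cells without that library.

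**Figure D3:**
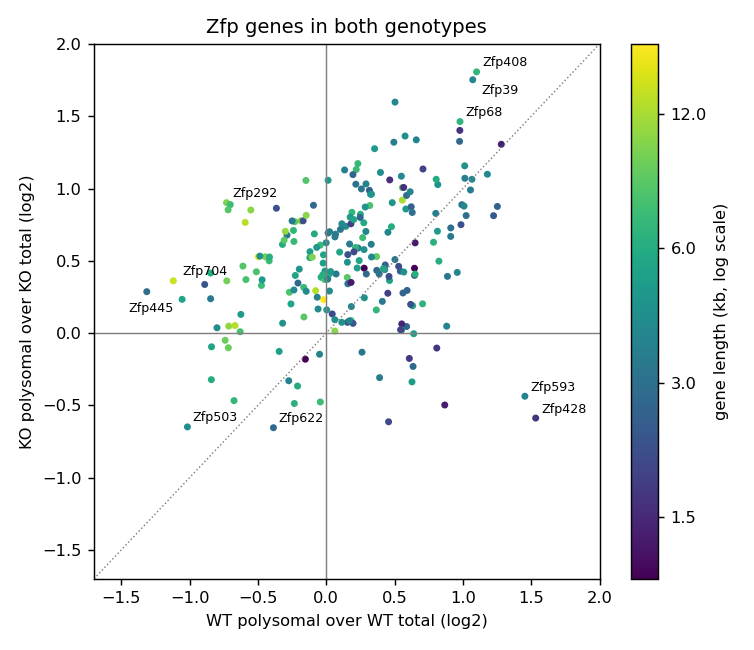
Polysomal over total RNA as a log2 fold change for each of 231 Zfp genes in KO cells (y axis) and in WT cells (x axis), coloured by gene length in kb on a log scale, with equality as a dotted line. Above the dotted line lie 167 genes, and long genes (light colours) are mostly at the left.

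Long members stood lower in polysomes than short ones in WT cells, while in KO cells members of all lengths lay close together. Members were long, with a median gene length of 4324 bases in the authors' table, against 3440.5 for all genes. Spearman's rho between length and the polysomal log2 fold change was -0.02 over the members in KO cells and -0.47 in WT cells, beside 0.12 and -0.45 over all genes tested. In 3 classes of length, the members' median in KO cells was 0.49 for the 78 shortest, 0.50 for the middle 77 and 0.52 for the 78 longest, while in WT cells it was 0.42, 0.23 and -0.15. Single libraries differed within a genotype: the members' rho was -0.33, 0.17 and 0.08 in KO polysomal replicates 1 to 3, and -0.32, -0.50 and -0.24 in WT polysomal replicates 1 to 3. Once a linear length trend was taken out of every library, the members' median was 0.49 in KO cells and 0.24 in WT cells. In KO cells 43 members were then called higher, a count given without its share over all genes and not read as a result about the members. The part of library length trends in the difference between genotypes was not tested beyond this removal.

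**Figure D4:**
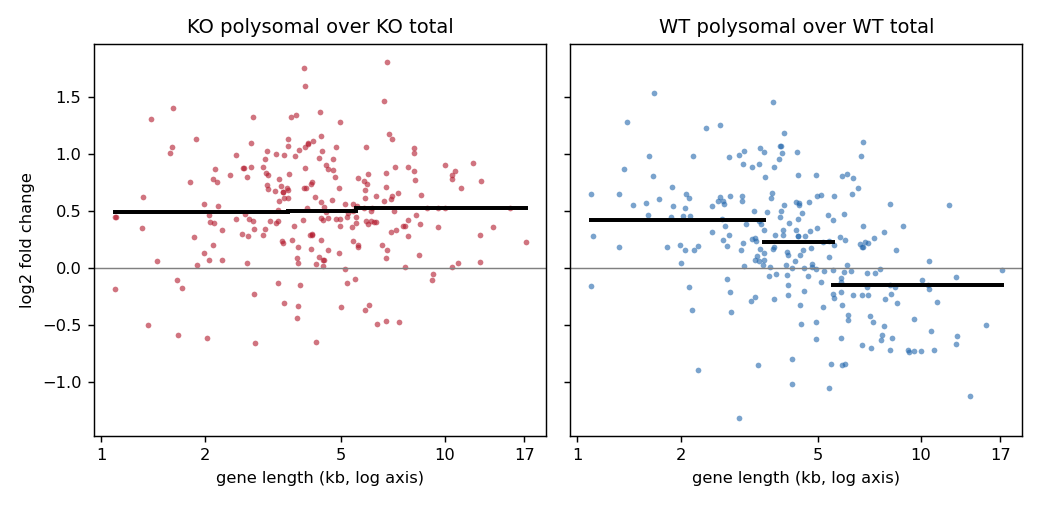
Polysomal over total RNA as a log2 fold change (y axis) against gene length in kb (x axis, log scale) for the Zfp genes, in KO cells at the left and WT cells at the right, with black lines at the median of each of 3 length classes. The KO lines lie at 0.49, 0.50 and 0.52, and the WT lines step down through 0.42, 0.23 and -0.15.

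The difference between the genotypes' polysomal fold changes was tested for each gene. It passed for 0 members in either direction by limma, beside 0.224% of the 12474 genes tested for higher and 0.0401% for lower. It passed for 0 in edgeR. DESeq2 called 4 higher and 3 lower, given without the share over all genes. At an unadjusted p under 0.05, 28 members were higher and 6 lower, beside 11.8% and 9.04% of all genes. The members' median difference, KO minus WT, was 0.39, beside 0.09 for all genes, and 167 of 231 were above 0, beside 54.9% of all genes. Zfp704 had the lowest adjusted p, with a difference of 1.48 ± 0.34 (adjusted p = 0.0811), and passed without WT polysomal replicate 2 (1.51 ± 0.34, adjusted p = 0.0426). Zfp292 had the largest value, 1.63 ± 0.83 (adjusted p = 0.279), which was 0.91 ± 0.54 without that library. At the other end stood Zfp428 at -2.12 ± 0.71 and Zfp593 at -1.89 ± 0.62, both with the outlying WT polysomal replicate 2 among their values; without it Zfp428 stood at -1.47 and Zfp593 at -1.40. These differences hold WT total RNA, which the rule used, and they are a description.

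Between genotypes within polysomal RNA, which the rule did not use, Zfp mRNAs leaned to slightly higher values in the knockout. The members' median log2 fold change, KO over WT, was 0.18, beside 0.00 for all genes, and 154 of 231 (66.7%) were above 0, beside 49.7%. No member passed the test in limma, beside 1.62% of 12184 genes higher and 0.952% lower, and none in edgeR. At an unadjusted p under 0.05 in limma there were 14 higher and 3 lower members, beside 8.94% and 7% of all genes. DESeq2 called 2 members higher and 2 lower, given without the share over all genes. In 37 members (16.0%) every KO polysomal library was above every WT polysomal library, beside 12.5% of all genes, and in 5 (2.16%) below, beside 11.1%. Zfp57 came closest to the threshold, with 1.70, 2.57 and 1.25 normalised read counts in KO polysomal RNA, against 6.43, 9.43 and 5.71 in WT polysomal RNA (-1.46 ± 0.30, adjusted p = 0.0513), and passed without WT polysomal replicate 2 (-1.24 ± 0.27, adjusted p = 0.0427). Zfp503 had 50.2, 46.5 and 51.6, against 31.8, 26.6 and 28.3 (0.84 ± 0.20, adjusted p = 0.0816). Both genes separated the genotypes without overlap. Zfp703 had 71.8, 67.9 and 73.3, against 106, 155 and 128 (-0.76 ± 0.23, adjusted p = 0.156), again without overlap.

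In total RNA the same comparison, given as a description because it holds WT total RNA, leaned the other way. The members' median was -0.16, beside -0.02 for all genes; 16 members (6.93%) were called higher and 35 (15.2%) lower, beside 17.9% and 18.9% of 11993 genes. Without WT total replicate 1 these counts were 1 and 10, given without their share over all genes. Zfp771 (1.04 ± 0.31), Zfp870 (0.94 ± 0.22), Zfp593 (0.91 ± 0.25), Zfp3 (0.89 ± 0.24) and Zfp938 (0.87 ± 0.20) led the higher members, followed by Zfp428, Zfp944, Zfp560, Zfp330, Zfp53, Zfp651 and Zfp622. Zfp622 had 190 and 180 in KO total RNA, against 148, 132 and 114 in WT total RNA (0.62 ± 0.15). Zfp704 (-1.53 ± 0.18), Zfp217 (-1.40 ± 0.25), Zfp57 (-1.38 ± 0.26), Zfp462 (-1.25 ± 0.26) and Zfp568 (-1.16 ± 0.34) led the lower members, followed by Zfp292, Zfp871, Zfp532, Zfp703, Zfp384, Zfp236 and Zfp334. Zfp704 had 19.2 and 13.7, against 49.7, 57.0 and 52.9, and Zfp217 had 11.9 and 6.03, against 26.2, 26.3 and 25.9. The gap was wide in both genes, with every KO total library under every WT total library.

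By role, 5 of the 9 activators and chromatin-bound members were called lower in KO total RNA, and 3 of the 6 silencing members were, Zfp57, Zfp445 and Zfp568. The share called lower over all genes tested was 18.9%. Of the 3 ribosome-linked members, Zfp622 and Zfp593 were called higher, beside 17.9% of all genes tested. Zfp57 had 2.31 and 2.71 in KO total RNA, against 6.71, 7.96 and 12.3 in WT total RNA, so it was lower in the knockout in both kinds of RNA. Gene length and the genotype log2 fold change had a Spearman's rho of -0.31 over the members, beside -0.44 over all genes.

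**Figure D5:**
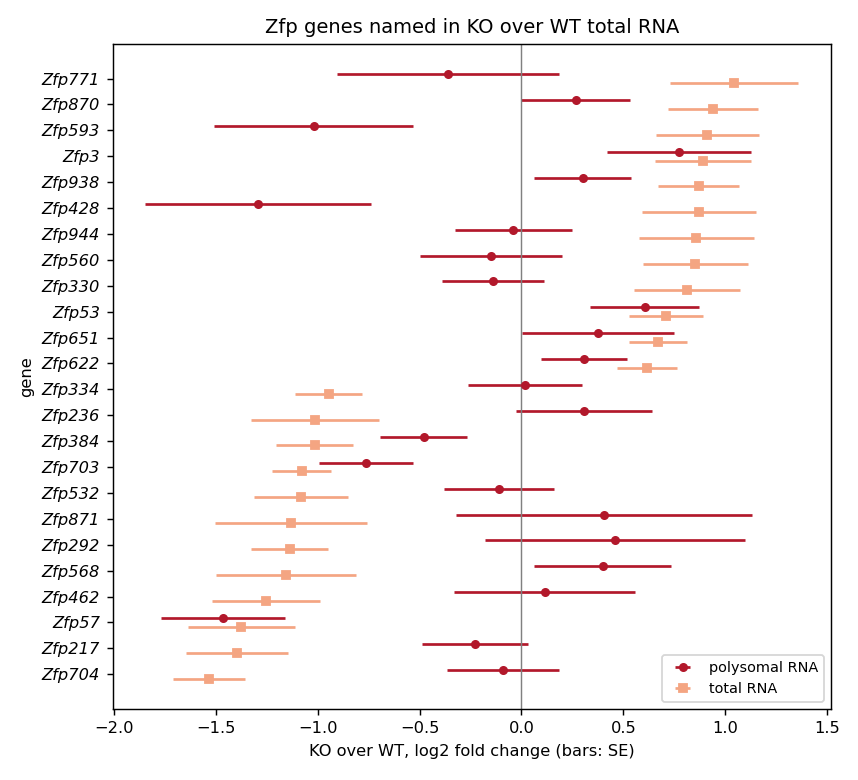
KO over WT log2 fold changes on a common scale (x axis, bars are the SE) of the 24 Zfp genes named for total RNA (y axis), in polysomal RNA (circles) and in total RNA (squares). Zfp57 is low in both, at -1.46 and -1.38, while Zfp704 is at -0.09 in polysomal RNA and -1.53 in total RNA.

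The genes of the corepressor machinery that KRAB zinc finger proteins recruit had a median near 0 in the knockout. Over 24 gene models of KAP1, SETDB1, HP1, NuRD and HUSH subunits and the DNA methylation maintenance factors Dnmt1 and Uhrf1, the median log2 fold change of KO polysomal over KO total RNA was -0.07, with 12 above 0. None passed in limma or edgeR in that comparison, and DESeq2 called 3 lower, given without the share over all genes. At an unadjusted p under 0.05 in limma, 5 were lower and 0 higher, beside 10.7% and 12.1% of all genes. Trim28 itself was at -0.86 ± 0.23 (adjusted p = 0.0858) and Setdb1 at -0.16 ± 0.26. In WT cells the median was -0.29, and Dnmt1, Chd3, Chd4 and Atf7ip (-0.76 ± 0.20) were called lower, 4 of the 24 gene models, beside 13.8% of all genes tested. Another gene ID named Atf7ip was not called, at -0.90 ± 0.38 (limma adjusted p = 0.125). In KO over WT total RNA, 9 of the 24 were called lower and 0 higher by limma, beside 18.9% and 17.9% of all genes tested. At an unadjusted p under 0.05 in limma, 12 were lower and 1 higher, given without the share over all genes. Setdb1 was among the called at -0.58 ± 0.16, while Trim28 was at -0.13 ± 0.16. edgeR called 8 lower and 0 higher there, and DESeq2 10 lower and 1 higher, also without the share over all genes.

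Members lay on 20 chromosomes, and in KO cells runs of neighbours leaned the same way as the family. Of 232 members with coordinates, 60 lay on chromosome 7 and 30 on chromosome 17. Runs of 3 or more members, each within 200 kb of the next, held 85 members in 16 runs. The longest, 11 genes on chromosome 7 between 29768552 and 30169775, had a median polysomal log2 fold change of 0.53 in KO cells and 0.11 in WT cells, with 10 of 11 and 6 of 11 above 0. The run of 8 genes on chromosome 17 between 21450374 and 21994366 had medians of 0.59 and 0.58, and all 8 were above 0 in KO cells. The run of 6 on chromosome 7 between 24081877 and 24316698 stood at 0.83 and 0.26. Medians of the 16 runs in KO cells reached from 0.15, in 8 genes on chromosome 7 that include Zfp771, to 1.06, in the 3 genes Zfp251, Zfp647 and Zfp7 on chromosome 15. In WT cells the run medians reached from -0.19 to 0.58. Those below 0 were the runs that include Zfp560 on chromosome 9 (-0.19), Zfp397 on chromosome 18 (-0.04) and Zfp446 on chromosome 7 (-0.02). Neighbouring Zfp genes can be near copies of each other, and how reads that match several of them were counted is not given in the sources used here, so values of single cluster members are uncertain. The spans of 81 members overlap another gene, in 29 of them a protein-coding one, and those of Zfp704, Zfp593 and Zfp503 overlap a gene of another kind.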

How the data were processed

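RNA sequencing of polysomal and total RNA was deposited as 1 table per genotype. The signal that the authors deposited is a normalised read count. Dividing each library's values by its own factor gave whole reads for 100% of them, within 0.001 reads. The authors also deposited a log2 fold change and an FDR (adjusted p-value). The submitters' processing notes name STAR, HTSeq, edgeR and mm10, without versions or roles. Labels list 12 samples; 11 libraries have columns, and KO columns match titles by group only, so KO replicate numbers here only name columns.

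Each comparison was fitted with limma 3.58.1 (R 4.3.3, mean-variance trend) on log2(value + 1) over genes that reached 1 in 3 or more of the fitted libraries, with Benjamini-Hochberg adjustment over all of them and a threshold of 0.05. Fold changes on that scale understate changes of low genes. Genotypes were put on 1 scale by medians of ratios over shared genes. edgeR 4.0.16 and DESeq2 1.42.0 were run on the recovered reads. The code was tested on simulated data. Replicates differed beyond counting error (chi-square per degree of freedom at least 4.00). Coordinates and promoters are RefSeq's (GRCm38.p6). The members and lists were chosen with earlier results of these data known. Named were up to 12 called members per direction, role lists, the 5 highest per kb and the members at the minimum; others named were chosen after their values were seen.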

Additional observations from a re-analysis of the deposited data

How the results depend on the processing

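Under the alternatives run, no median of the members changed direction. No called gene among the largest called and the role lists changed sign, and the other called members were not followed. The alternatives were pseudocounts of 0.5 and 0.1, no filter, a minimum of 5, median-of-ratios and quantile scaling, a removed length trend, edgeR, DESeq2, rRNA-like gene models left out, other level minimums and 1 library left out. For KO polysomal over KO total RNA, 43 members were higher with the length trend removed and 43 in DESeq2, which called 1 lower; leaving out 1 library gave 0 to 58 higher and 0 to 2 lower. Leaving out the rRNA-like gene models moved the median of all genes to 0.21 and that of the members to 0.68, so both medians moved up together. For WT polysomal over WT total RNA, the length trend removed gave 2 lower, DESeq2 43 higher and 10 lower, members with a mean of at least 5 gave 15 higher, and leaving out 1 library 0 to 65 higher and 0 to 19 lower; without WT total replicate 1 or 3 the balance of calls turned, to 0 higher with 1 and 2 lower. The genotype difference gave 4 higher and 3 lower in DESeq2, and 0 to 2 higher and 0 lower with 1 library left out. KO over WT polysomal RNA gave 1 lower by quantile scaling, 1 lower with the length trend removed, 2 higher and 2 lower in DESeq2, 1 higher with members chosen on KO total RNA, and 0 to 1 in each direction with 1 library left out. KO over WT total RNA gave 1 to 29 higher and 10 to 78 lower with 1 library left out. The shares over all genes under these alternatives are not given here, so the counts show only how far the members' calls moved. The cause of these moves was not tested. With the replicate number as a block in WT cells, 14 members were higher and 2 lower. Same-numbered libraries deviated from their group means with correlations of 0.21, -0.22 and -0.07. Those of differently numbered libraries reached from -0.31 to 0.26, so whether same-numbered libraries share more than a number cannot be told from these values. No paired analysis was possible because, in the comparisons that hold KO libraries, the numbers in the KO columns could not be matched to the labelled samples, of which 1 KO total sample has no column. Where 1 KO total library was left, its spread was taken from the KO polysomal libraries.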

Other observations

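Zinc finger genes outside the members leaned to polysomes in KO cells as well. Of the Zbtb genes, which join a BTB domain to zinc fingers, 25 of 31 tested had a KO polysomal over KO total log2 fold change above 0, with a median of 0.56. The Zscan genes had 8 of 8 above 0 (median 0.51) and the Zkscan genes 7 of 7 (median 0.36). The Klf genes, for Krüppel-like factors, had 9 of 11 above 0 (median 0.60), and 1 of them was called higher by limma, beside 0.911% of all genes. The 34 Zfp genes under the level minimum that could be tested had a median of 0.60, with 33 above 0. By limma and edgeR 0 of them were called, and 15 were higher at an unadjusted p under 0.05 in limma, beside 12.1% of all genes. DESeq2 called 2 of them higher, given without the share over all genes. Such scarce genes entered the test by reaching 1 in at least 3 libraries. The 3 KO polysomal libraries could meet that alone and the 2 KO total libraries could not. The filter thus favoured values above 0 among them, and nothing is read from their direction. In WT cells the medians were -0.03 for Zbtb, 0.20 for Zscan, -0.09 for Zkscan, 0.01 for Klf and 0.28 for the 33 Zfp genes under the minimum that could be tested there. Over all genes tested the median was 0.04 in KO cells and -0.02 in WT cells, with 52.7% and 48.9% above 0.

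The Zfp genes listed only for the knockout were Zfp474, Zfp947, Zfp456 and Zfp97. The highest value among them in any KO library was 1.91 normalised read counts, for Zfp456 in KO polysomal replicate 1.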
